A study of Mus musculus with 6 samples.

Results

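The genes described here encode proteins that link actin filaments to one another and to the plasma membrane: Ablim1 and its relative Ablim3, the Ena/VASP proteins Enah, Vasp and Evl, the MARCKS proteins Marcks and Marcksl1, and the protein 4.1 relatives Epb41l1, Epb41l2 and Epb41l3. They are 10 of the 24940 genes in the deposited exon count table, found by their symbols, and were chosen as genes whose level differed between treatments in this same comparison, each set beside its paralogs. All 6 libraries came from primary hepatic stellate cells, liver pericytes that store vitamin A, of female C57BL/6JBomTac mice with no genetic change stated. From 2 days after isolation the cells of 3 libraries, A to C, were kept for 6 hours with 10 µM obeticholic acid (OCA), a bile acid derivative that activates the nuclear receptor FXR. Those of the other 3, also lettered A to C, were kept as long with an equal volume of the solvent dimethyl sulfoxide (DMSO). Whether libraries of 1 group stem from different mice or isolations is not in the labels, so errors and p-values cover the spread among libraries alone and that spread may be technical.

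Actin filaments grow mostly at a fast-growing end, and cells decide where by placing proteins at that end or at the membrane. Ena/VASP proteins bind growing filament ends, keep capping proteins away and are brought to focal adhesions and the leading edge by ligands with proline-rich motifs, such as zyxin and lamellipodin. MARCKS proteins carry a myristoyl group and a lysine-rich domain, which binds the membrane lipid PIP2, calmodulin and actin and leaves the membrane when protein kinase C phosphorylates it. Protein 4.1 family members join the spectrin and actin network to membrane proteins through a FERM domain, and abLIM proteins bind filaments through a villin headpiece and other proteins through LIM domains. Stellate cells in culture spread and build stress fibres as they turn into myofibroblasts.

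Column totals ranged from 12260882 to 16336240 counts. Levels are in CPM, counts scaled to library size. All 14 stellate cell markers looked up passed the filter on low counts, with a summed level of 3882 to 4292 CPM in DMSO and 3404 to 4140 CPM in OCA. Of these markers Reln (log2 fold change -0.75, SE 0.18) and Rgs5 (-0.43, SE 0.11) fell and Lhx2 (0.23, SE 0.07) rose under OCA, and their part in the results below was not tested. Evl is abundant in blood cells, and all 10 leukocyte markers had a mean under 1 CPM, with Cd3g, Ms4a1 and Nkg7 among those at 0. The leukocyte list summed to 0.836 to 1.66 CPM in DMSO and 0.785 to 2.15 CPM in OCA. The 10 macrophage markers summed to 6.19 to 12.7 and 8.47 to 8.83 CPM, and the 10 endothelial markers to 24.0 to 32.7 and 28.5 to 32.5 CPM. The 10 hepatocyte markers summed to 161 to 187 and 183 to 188 CPM, nearly all of it Ass1; 8 had a mean under 1 CPM and Alb stood at 2.07 ± 0.756 CPM in DMSO and 2.30 ± 0.621 CPM in OCA (SD, n = 3). The 6 cholangiocyte markers (Krt7 at 0) summed to 5.56 to 7.57 CPM in DMSO and 4.35 to 5.69 CPM in OCA. The 10 mesothelial and portal fibroblast markers (Gpm6a and Thy1 at 0) summed to 5.98 to 6.93 and 3.38 to 5.02 CPM, ranges that did not overlap, and the part of such cells in the results was not tested. In such bulk libraries fewer cells of a type and less RNA per cell cannot be told apart.

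Of the 10 genes, 8 had enough counts to be tested, and each of the 4 families held exactly 1 gene called higher under OCA: Ablim1, Enah, Marcksl1 and Epb41l1. By edgeR 0 were called lower (0 at an unadjusted p under 0.05, and 0 by DESeq2 or limma-voom), and Vasp, Evl, Marcks and Epb41l2 were not called. A call is an adjusted p under 0.05 in the quasi-likelihood test of edgeR, adjusted by Benjamini-Hochberg over 12687 genes, of which 5.2% were called in either direction, 2.18% higher and 3.03% lower. Because these genes were picked from the comparison of OCA with DMSO, their calls and fold changes are given as a description and show nothing beyond that choice. All CPM values are scaled to a common library size, and fold changes are OCA over DMSO on that scale.

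**Figure D1:**
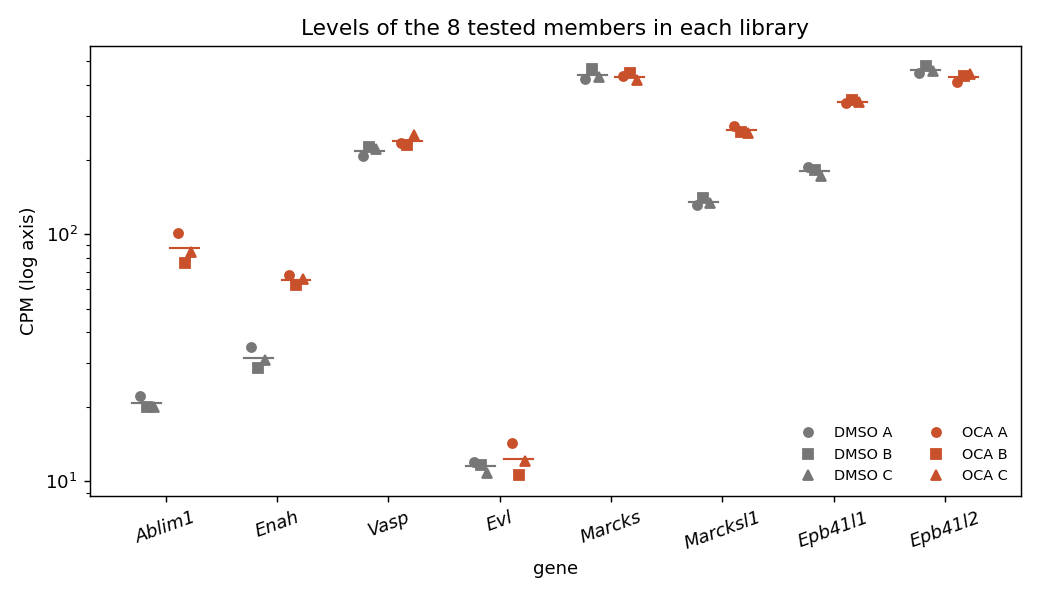
Level of each of the 8 tested genes in CPM on a log axis, by gene. Each point is 1 library (circle A, square B, triangle C), grey for DMSO and orange for OCA, and short lines are group means (n = 3). The orange points lie clear of the grey ones for Ablim1, Enah, Marcksl1 and Epb41l1, and groups are close together for Vasp, Evl, Marcks and Epb41l2.

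Ablim1 (NM_001290816, mm10 chromosome 19, 57033264 to 57197631, minus strand) encodes actin-binding LIM protein 1, a scaffold on actin filaments. It had 22.1, 20.03 and 19.9 CPM in DMSO A, B and C and 101, 76.4 and 85.0 CPM in OCA A, B and C. The lowest OCA library was above every DMSO library, and OCA A stood highest of the 6. The group levels were 20.7 ± 1.21 and 87.4 ± 12.5 CPM (SD, n = 3), a 4.22-fold difference (log2 fold change 2.08, SE 0.10). By size of increase it ranked 15 of the 12687 tested genes. Without OCA A the log2 fold change was 1.96, and without OCA B it was 2.17.

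Ablim3, its paralog, was close to absent. The DMSO libraries held 0, 2 and 7 counts and the OCA libraries 0, 1 and 0, against a floor of 3 counts that corresponds to 0.181 to 0.251 CPM in a library. The ratio of the summed counts, 1 in OCA against 9 in DMSO, was 0.125 after scaling for depth, with an exact 95% counting interval of 0.00285 to 0.9 that covers counting error only. Most of the DMSO counts came from DMSO C alone, so no direction can be read from them.

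Enah (NM_010135, chromosome 1, 181896386 to 182019980, minus strand) encodes Mena, the Ena/VASP protein known from migrating cells and growth cones. Its levels were 34.8, 28.7 and 31.0 CPM in DMSO A, B and C and 68.5, 62.3 and 65.5 CPM in OCA A, B and C. The groups were far apart compared with their spread, 31.5 ± 3.08 against 65.4 ± 3.10 CPM (SD, n = 3), a 2.07-fold difference (log2 fold change 1.05, SE 0.09). Its annotated transcript of 12318 bases is the longest of the 10.

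Vasp (NM_001282021, chromosome 7, 19256930 to 19271854, minus strand), the founding member found at focal adhesions, had 207, 224 and 221 CPM in DMSO and 233, 230 and 251 CPM in OCA. The OCA libraries lay just above the DMSO libraries without overlap, as 11.6% of all tested genes did in that direction, and Vasp was not called. Its fold was 1.10, with a 95% interval of 0.995 to 1.21. Evl (NM_001163394, chromosome 12, 108554720 to 108688515, plus strand) had 11.98, 11.7 and 10.8 CPM in DMSO and 14.3, 10.6 and 12.1 CPM in OCA. Its groups overlapped, with both the highest and the lowest value in OCA libraries, and its fold of 1.07 had a 95% interval of 0.847 to 1.36. Evl shares part of its span with Degs2 and Gm16596 on the other strand, and no source used here gives the strand setting, so its counts are less certain.

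The Enah to Vasp ratio of CPM was 0.128 to 0.169 over the DMSO libraries and 0.261 to 0.294 over the OCA libraries. Divided by transcript length, which allows levels of different genes to be compared, Vasp stayed by far the most abundant Ena/VASP gene. It held 92.5% ± 0.688 of the summed family level per kb in DMSO and 90.6% ± 0.950 in OCA (SD, n = 3). Enah held 2.44% ± 0.330 in DMSO and 4.52% ± 0.237 in OCA, and Evl 5.05% ± 0.401 and 4.84% ± 0.735. In DMSO, Enah was below Evl in every library on this scale (2.33 to 2.83 against 4.999 to 5.53 CPM per kb), while under OCA their ranges overlapped (5.06 to 5.56 against 4.88 to 6.62 CPM per kb). The summed Ena/VASP level went from 105 ± 3.81 to 118 ± 5.38 CPM per kb, a ratio of 1.12, of which Vasp made up most. Without division by length, Enah made up 12.1% of the family in DMSO and 20.7% in OCA, since its long transcript collects more reads.

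Marcksl1 (NM_010807, chromosome 4, 129513581 to 129515981, plus strand), also called MARCKS-like protein or MacMARCKS, had 131, 140 and 133 CPM in DMSO A, B and C. In OCA A, B and C it had 274, 258 and 256 CPM. The libraries of each group were close together and the groups well apart, at 135 ± 4.68 and 263 ± 10.0 CPM (SD, n = 3), a 1.95-fold difference (log2 fold change 0.96, SE 0.06). Marcks (NM_008538, chromosome 10, 37133243 to 37138926, minus strand), the larger founding member, had 424, 464 and 432 CPM in DMSO and 434, 447 and 418 CPM in OCA. Its groups overlapped, and its fold of 0.984 had a 95% interval of 0.889 to 1.09.

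The order of the MARCKS genes per length turned with treatment. Per kb, Marcks was at 105 ± 5.05 and Marcksl1 at 84.4 ± 2.93 CPM in DMSO, with every Marcks value above every Marcksl1 value. Under OCA Marcksl1 was at 164.5 ± 6.27 and Marcks at 104 ± 3.41 CPM per kb (SD, n = 3). Marcksl1 thus held 44.2% to 44.8% of the summed level in the DMSO libraries and 60.2% to 62.3% in the OCA libraries. Without division by length the order did not turn: the CPM of Marcks was 3.23 to 3.31 times Marcksl1 in DMSO and 1.58 to 1.73 times in OCA. The summed MARCKS level went from 190 ± 7.98 to 268 ± 7.63 CPM per kb.

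Epb41l1 (NM_001291120, chromosome 2, 156420909 to 156543214, plus strand) encodes 4.1N, named for its abundance in neurons. It had 186, 181 and 172 CPM in DMSO A, B and C and 339, 347 and 342 CPM in OCA A, B and C. The OCA libraries differed little from one another and all lay above the DMSO libraries, 343 ± 4.11 against 180 ± 7.22 CPM (SD, n = 3), a 1.91-fold difference (log2 fold change 0.93, SE 0.07). Epb41l2 (NM_001199265, chromosome 10, 25359798 to 25523518, plus strand) encodes the widely expressed 4.1G and had 447, 476 and 456 CPM in DMSO and 413, 436 and 443 CPM in OCA. All OCA libraries were below the DMSO libraries, as for 11.3% of all tested genes, but by little, and Epb41l2 was not called. Its fold was 0.937, with a 95% interval of 0.847 to 1.04.

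Epb41l3, which encodes 4.1B, had 2 counts over the DMSO libraries, both in DMSO B, and 1 over the OCA libraries, in OCA B. Both groups were under the floor of 3 counts, so no fold is given. Shares per kb are of the sum of Epb41l1, Epb41l2 and Epb41l3 alone. Of that sum, Epb41l1 held 20.3% to 22% in DMSO libraries and 34.3% to 35.7% in OCA libraries. Epb41l2 made up nearly all of the rest. The paralog Epb41, with a length of 5032 bases, was left out. Its mean level was 132 CPM (DMSO) and 141 CPM (OCA), so shares of a sum that includes it would be lower. Epb41l2 remained the more abundant, at 94.6 to 101 CPM per kb in OCA against 52.5 to 53.7 CPM per kb for Epb41l1. The CPM ratio of Epb41l1 to Epb41l2 was 0.377 to 0.417 in DMSO and 0.771 to 0.821 in OCA, not divided by length.

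**Figure D2:**
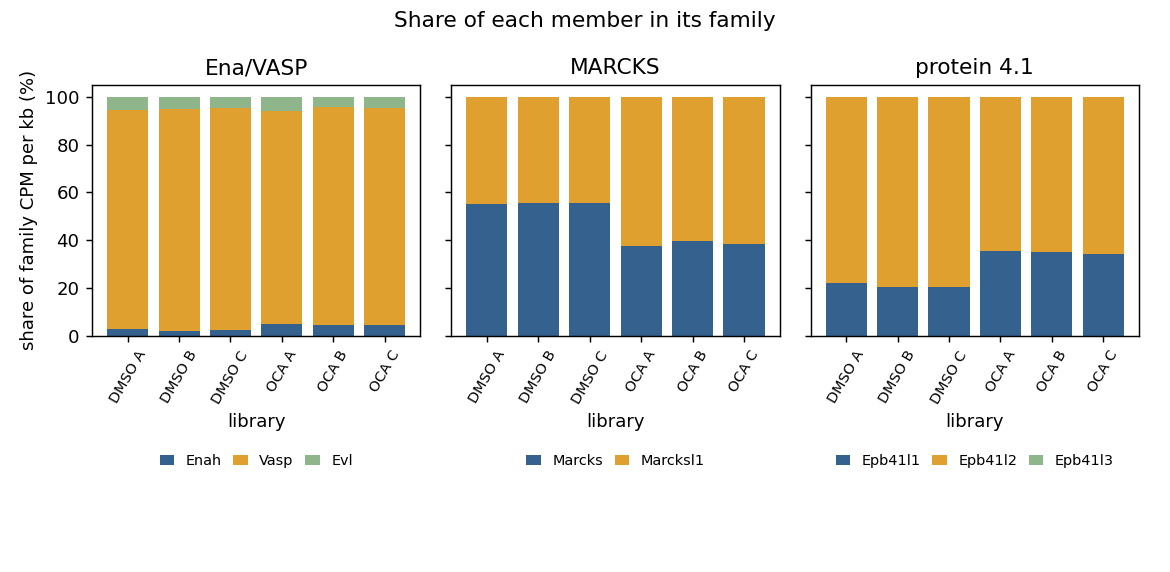
Share of each gene in the summed CPM per kb of the listed genes of its family (%), by library. Shown are the Ena/VASP, MARCKS and protein 4.1 genes, with Epb41 left out. Bars start at 0 and each bar is 1 library. Marcksl1 makes up 44.2% to 44.8% of its pair in DMSO and 60.2% to 62.3% in OCA, Epb41l1 goes from 20.3% to 22% up to 34.3% to 35.7%, and Vasp fills most of its bar in all 6 libraries.

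In 3 families another of the 10 genes was tested. There, the fold change of the gene called higher lay about 1 log2 unit above those of its paralogs among the 10. The log2 fold change of Enah exceeded that of Vasp by 0.92 (SE 0.11) and that of Evl by 0.95 (SE 0.19). Epb41l1 exceeded Epb41l2 by 1.02 (SE 0.09), and Marcks was below Marcksl1, with a difference of -0.99 (SE 0.10). These differences use the values by which the genes were chosen and are not tested. Their SE combines those of both genes as if independent, though both were measured in the same libraries. Vasp and Evl differed from each other by 0.03 (SE 0.18).

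**Figure D3:**
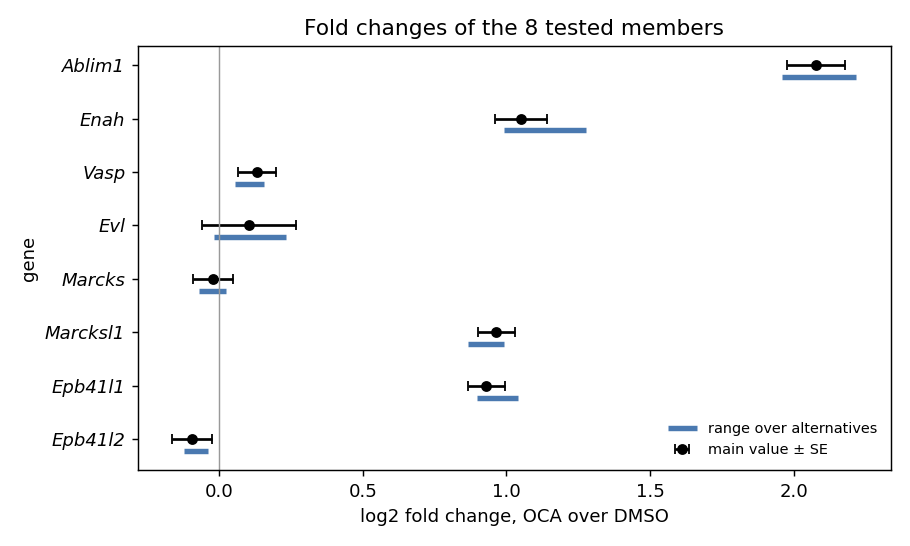
Log2 fold change of OCA over DMSO for the 8 tested genes. Black points are the values of the text with their SE, and blue bars span the lowest and highest of 19 alternative fits, for example 0.99 to 1.28 for Enah and -0.02 to 0.23 for Evl. Bars of the genes called higher stay clear of 0.

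Across all 12687 genes, long transcripts tended to lower values under OCA, and 3 of the 4 genes called higher here are long. Ablim1, Enah and Epb41l1, at 6261, 12318 and 6465 bases, fall in the longest eighth of tested genes, whose median log2 fold change was -0.14. Marcksl1, at 1597 bases, falls in the second shortest eighth, whose median was 0.07. With each library corrected for its trend with transcript length, the log2 fold changes were 2.19 for Ablim1, 1.25 for Enah, 1.04 for Epb41l1 and 0.92 for Marcksl1. All 4 genes were called in that fit as well.

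Ordered by level per kb, the genes ran in DMSO from Epb41l2 (105 ± 3.40 CPM per kb) and Marcks (105 ± 5.05), whose libraries overlapped, to Vasp (97.3 ± 4.22), Marcksl1 (84.4 ± 2.93) and Epb41l1 (27.8 ± 1.12). Evl (5.30 ± 0.274), Ablim1 (3.30 ± 0.193) and Enah (2.56 ± 0.250) followed, and Ablim3 and Epb41l3 were near 0 (SD, n = 3). No other neighbours in that order overlapped, leaving out those last. Under OCA Marcksl1 led (164.5 ± 6.27 CPM per kb), ahead of Vasp (107 ± 5.22), Marcks (104 ± 3.41) and Epb41l2 (98.6 ± 3.57), and from Vasp to Epb41l2 the libraries of each gene overlapped those of the next. Epb41l1 (53.0 ± 0.635) and Ablim1 (13.96 ± 1.99) came next, and then Evl (5.69 ± 0.872) and Enah (5.31 ± 0.251), whose libraries overlapped. The level per kb rests on the 1 transcript length that the table gives for each gene.

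The upstream sequences of the 4 genes called higher are shown because these genes were called higher in the same cells. RefSeq start site windows of build GRCm38.p6, the assembly behind mm10, matched 8 of the 10 genes, with 17 windows in all, each from 250 bases before to 50 bases after a start. For 7 genes the start site of a window was the start of the counted transcript. Ablim1 alone has 5 such windows and 21 transcripts in GENCODE M21, and the table holds 1 value per gene, so the start in use cannot be told from it. The 250 bases upstream of the counted start are given on the gene's own strand, in lower case, with every match to the searched motifs in capitals.
Ablim1 (chr19:57197632-57197881, minus strand): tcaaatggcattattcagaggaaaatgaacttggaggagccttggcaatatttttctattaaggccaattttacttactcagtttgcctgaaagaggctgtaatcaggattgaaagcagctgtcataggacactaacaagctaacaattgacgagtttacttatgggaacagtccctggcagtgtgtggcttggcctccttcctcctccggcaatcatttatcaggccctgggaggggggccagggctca
Enah (chr1:182019981-182020230, minus strand): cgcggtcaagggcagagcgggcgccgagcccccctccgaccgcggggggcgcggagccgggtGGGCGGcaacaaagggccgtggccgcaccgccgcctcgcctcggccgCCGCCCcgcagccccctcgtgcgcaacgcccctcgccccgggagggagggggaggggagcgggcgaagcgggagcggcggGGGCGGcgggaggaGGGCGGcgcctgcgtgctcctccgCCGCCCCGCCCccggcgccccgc
Marcksl1 (chr4:129513331-129513580, plus strand): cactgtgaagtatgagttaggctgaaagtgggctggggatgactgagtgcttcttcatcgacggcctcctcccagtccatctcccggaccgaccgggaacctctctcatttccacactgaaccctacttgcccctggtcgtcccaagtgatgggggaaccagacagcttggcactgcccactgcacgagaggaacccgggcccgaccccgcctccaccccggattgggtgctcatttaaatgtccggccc
Epb41l1 (chr2:156420659-156420908, plus strand): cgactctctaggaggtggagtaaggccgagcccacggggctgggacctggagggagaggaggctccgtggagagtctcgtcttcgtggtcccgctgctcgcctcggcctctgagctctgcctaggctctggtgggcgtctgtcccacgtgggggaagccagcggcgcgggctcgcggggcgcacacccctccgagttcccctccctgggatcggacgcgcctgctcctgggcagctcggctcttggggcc

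The 4 upstream regions differ widely in base composition. G and C make up 46.4% of the Ablim1 region, 60.4% for Marcksl1, 71.2% for Epb41l1 and 84.8% for Enah, against a median of 52.4% over all 32851 windows. Searched on both strands were the inverted repeat core GTCANTGAC, the full FXR inverted repeat (that core with G before and C after it, so each full match is also a core match), the nuclear receptor half-site AGGTCA, the CArG box of serum response factor, the AP-1 site TGANTCA, the TEAD site GGAATG and the Sp1 site GGGCGG, a set chosen with these sequences in view. The capitals above mark Sp1 matches, all in Enah, whose window holds 6 of them, the closest pair overlapping. An Sp1 match was in 9 of the 17 windows, those of other starts and of the paralogs included, and occurs in 35.7% of all windows. The other 3 upstream regions hold no match that lies wholly within them. In the Marcksl1 window 1 Sp1 match crosses the start site and another lies 40 bases after it.

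The full FXR repeat was in 0 of the 17 windows, and it is rare, in 0.0396% of all windows. Its core occurs in 0.387% of all windows, and among the 17 it was found once, at the counted start of Ablim1, 37 to 45 bases into the transcript counted from the start site as 1. The 30 bases that hold it lie within the first exon, in the 5′ UTR of a GENCODE M21 transcript with the same start, and the match to the core is in capitals. A TEAD match that begins 22 bases into the transcript, in the same stretch, is left in lower case.
Ablim1 (chr19:57197582-57197611, minus strand): aggaatgcaaggtggtGTCAGTGACcggag
The half-site was in 2 of the 17 windows, at a second start of Evl and at the counted start of Epb41l3, and the CArG box in 0. The half-site occurs in 16.3% of all windows and the CArG box in 1.63%. AP-1 matches were in 2 of the 17 windows and TEAD matches in 4, against 7.81% and 14.7% of all windows. These matches describe letters in a 300-base window and are not binding sites.

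Genes for proteins that bind or recruit Ena/VASP proteins were called in both directions. Of 19 tested ligands and adaptors, 2 were called higher, 4 fell and 13 were not called. Over all tested genes 2.18% were called higher and 3.03% lower, shares to set beside the lists below as well. The median log2 fold change of this list was -0.02, against 0.0008 for all tested genes. Tes, encoding testin, a LIM protein that binds the EVH1 domain of Mena, rose from 101 ± 2.004 to 156 ± 17.1 CPM (SD, n = 3, log2 fold change 0.63, SE 0.08, edgeR adjusted p = 2.08e-05). Raph1, which encodes lamellipodin, the adaptor that brings Ena/VASP to the leading edge, fell, at 417 ± 34.5 CPM with DMSO against 324 ± 22.1 CPM with OCA (log2 fold change -0.37, SE 0.08, edgeR adjusted p = 0.00741). The giant cadherin gene Fat1 also fell, at 487 ± 109 CPM with DMSO against 327 ± 68.1 CPM with OCA (log2 fold change -0.58, SE 0.13, edgeR adjusted p = 0.0138). Its lowest DMSO library, at 410 CPM, was only just above OCA B, at 405 CPM.

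Fyb, an adaptor known from T cells and platelets, was the other gene called higher, at a very low level, with 5, 3 and 0 counts in DMSO A, B and C and 19, 15.5 and 20 in OCA A, B and C. It passed the filter on low counts only through its OCA libraries, so a tested Fyb had to differ, and its call is no support for a change. Robo1, a Slit receptor (log2 fold change -0.34, SE 0.09), and Lpp, a zyxin relative (log2 fold change -0.37, SE 0.11), were the other genes of the list called lower, named here after their values were seen. Leaving out 1 library, OCA A in each case, ended the calls of Raph1, Fat1, Robo1 and Lpp (edgeR adjusted p = 0.0726, 0.103, 0.0903 and 0.279). Leaving out OCA C or DMSO A likewise ended those of Fat1, Robo1 and Lpp, DMSO B that of Lpp, and any library but OCA B that of Fyb. DESeq2 did not call Fat1 or Lpp (adjusted p = 0.195 and 0.198) and gave no adjusted p for Fyb. With robust estimation in edgeR the calls of Fat1 and Lpp were lost as well (adjusted p = 0.281 and 0.0587), and with the length correction the calls of Raph1, Robo1 and Lpp were lost.

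Among genes that build filaments, of 26 tested nucleators and elongators, 1 rose and 1 fell, with a median log2 fold change of 0.04. The formin gene Daam2, an effector of Wnt signalling, rose from 72.5 ± 5.15 to 99.3 ± 11.8 CPM (SD, n = 3, log2 fold change 0.45, SE 0.08, edgeR adjusted p = 0.0027). The formin gene Fmnl2 had a log2 fold change of -0.28 (SE 0.08, edgeR adjusted p = 0.0494), a call lost in each of the 6 fits without 1 library. Among 23 capping, severing and monomer-binding genes 0 were called by edgeR, DESeq2 or limma-voom (6 at an unadjusted p under 0.05 in edgeR), with 15 above 0 and a median of 0.07. The most abundant, the monomer-binding Cap1 (584 ± 58.2 and 626 ± 13.5 CPM) and the severing protein gene Cfl1 (386 ± 49.7 and 410 ± 26.8 CPM), had log2 fold changes of 0.10 (SE 0.08) and 0.09 (SE 0.09).

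Of 17 tested regulators of MARCKS and related PIP2-binding genes, 1 rose and none fell. Prkcz, an atypical protein kinase C, had 10.4, 11 and 12.4 CPM in DMSO A, B and C and 27.0, 21.7 and 18.8 CPM in OCA A, B and C. The OCA libraries lay above the DMSO libraries, as for 11.6% of all tested genes (log2 fold change 1.00, SE 0.15, edgeR adjusted p = 0.000372). The median of the list was -0.04, and Gap43, a neuronal relative in function, had 0 counts in all 6 libraries. Of 11 other protein 4.1 and ERM genes, Ezr rose and Frmd4a fell. Ezr, which encodes ezrin, a linker of actin to the membrane, went from 60.5 ± 4.52 to 83.8 ± 5.18 CPM (SD, n = 3, log2 fold change 0.47, SE 0.08, edgeR adjusted p = 0.000917). Frmd4a, a FERM-domain scaffold, was at 243 ± 5.64 CPM with DMSO and 196 ± 9.81 CPM with OCA (log2 fold change -0.31, SE 0.06, edgeR adjusted p = 0.00718). That call ended when OCA A was left out (0.0586) and with the length correction (0.103).

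Among 19 tested spectrins, ankyrins and other partners of protein 4.1, 1 rose and none fell, with a median of -0.09. Ank1, the ankyrin known from red blood cells, went from 11.6, 8.82 and 9.17 CPM in DMSO A, B and C to 16.1, 21.3 and 22.2 CPM in OCA A, B and C (log2 fold change 1.00, SE 0.16, edgeR adjusted p = 0.000792). All 3 OCA libraries were above the DMSO libraries, as for 11.6% of all tested genes. Of 6 tested actin-binding LIM and villin relatives 0 were called by edgeR, DESeq2 or limma-voom (1 at an unadjusted p under 0.05 in edgeR), and the most abundant, Lima1 and Svil, had log2 fold changes of -0.07 (SE 0.06) and 0.17 (SE 0.07). Tes, Daam2, Prkcz, Ezr and Ank1 were called in all 19 alternative fits.

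**Figure D4:**
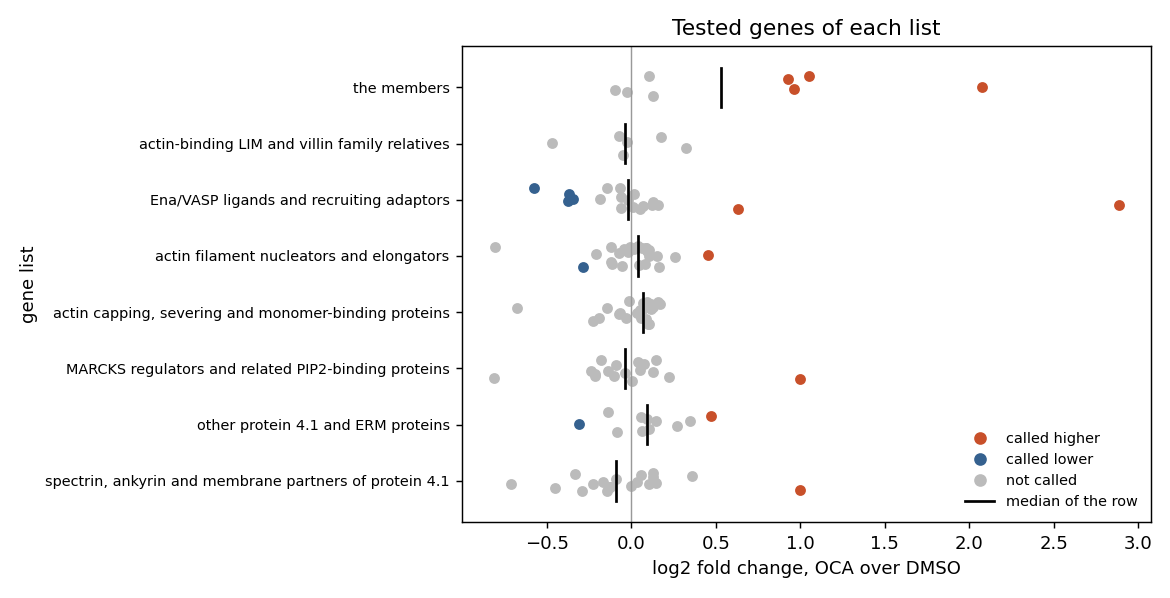
Log2 fold change of OCA over DMSO for the tested genes of each list, with the 8 tested members in the top row. Each point is 1 gene (orange called higher, blue called lower, grey not called), and black lines are the medians of the rows. The medians of the 7 lists lie between -0.09 and 0.09. A list holds 0 to 6 calls, the 6 being among the Ena/VASP ligands (6 of 19 genes), against 5.2% of all tested genes. They include Fyb, which had to differ in order to be tested. Without OCA A that list held 1 higher and 0 lower calls, beside 161 higher and 104 lower over all genes. With the length trend it held 2 higher and 1 lower, so no excess can be read from it. The top row was chosen from this comparison.

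The genes most like Ablim1 and Enah over the 6 libraries were found by Pearson's r of log2 CPM among 10734 other genes with a mean of at least 5 CPM. For Ablim1 they were Armt1 (r = 0.9985), Rasgrp2, Sgms1, Bcl2 and Slc8b1 (r = 0.9954). Rasgrp2 encodes an exchange factor for the small GTPase Rap1, Sgms1 a sphingomyelin synthase, Bcl2 an inhibitor of apoptosis and Slc8b1 the mitochondrial sodium-calcium exchanger. For Enah they were again Armt1 (r = 0.9963), then Jade1, Ctnnal1, Zbtb7c and Pcgf5 (r = 0.9929). Ctnnal1, the alpha-catenin relative, differed most between the groups, at 6.36 ± 1.03 CPM in DMSO and 34.9 ± 2.15 CPM in OCA (SD, n = 3). The 6 points are 2 separate groups of 3 that share library depth and scaling, so r describes these libraries only.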

How the data were processed

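Polyadenylated RNA was sequenced from 6 libraries that, per the labels' protocols, were made with an NEBNext Ultra kit. The tools STAR and HOMER and the build mm10 appear in the list taken from the submitters' processing notes, without a version, setting or strand mode. The deposited values are unadjusted exon counts per gene, taken here to be expected counts, with 1 row per symbol and steps of 0.5 (26.5% to 29.8% of values in a column are not whole). They were rounded to whole numbers for count tests. Groups came from the labels, and each pair of same-group libraries differed beyond sampling noise (chi-square per degree of freedom 4.4 to 8.01).

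OCA was compared with DMSO in edgeR 4.0.16 (R 4.3.3) with filterByExpr, TMM and the two-sided quasi-likelihood test. SE is the log2 fold change divided by the square root of F. For a difference between genes it is the root of the sum of their squared SE. CPM uses unrounded counts on TMM-scaled totals, and CPM per kb divides by the table's exonic length. Alternatives were DESeq2 1.42.0, limma-voom (limma 3.58.1), robust estimation, other scalings and filters, a replicate block, loess corrections (span 0.5) for transcript length, unrounded counts and left-out libraries. The correction for length and count density together was added after the data had been seen.

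The members, lists and tests were chosen with earlier results of these data known. Named are all members, up to 4 called genes per list with the smallest p (or the 2 most abundant where none was called), the 5 genes most correlated with Ablim1 and with Enah, and up to 3 markers per list. Robo1, Lpp, Gap43 and Epb41 are named outside this rule, after their values were seen. On simulated counts for OCA against DMSO with 12687 genes, the fit recovered 66% of 50 genes changed 1.3-fold, 74% at 1.5-fold, 90% at 2-fold and 98% at 3-fold, and called 10 unchanged genes.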

Additional observations from a re-analysis of the deposited data

How the results depend on the processing

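Ablim1, Enah, Marcksl1 and Epb41l1 were called higher in all 19 alternative fits, and Vasp, Evl, Marcks and Epb41l2 were called in 0 of them. Leaving out 1 library at a time gave log2 fold changes of 1.96 to 2.17 for Ablim1, 0.99 to 1.13 for Enah, 0.93 to 0.99 for Marcksl1 and 0.90 to 0.96 for Epb41l1. Same-lettered libraries did not deviate together (r = 0.0005, -0.04 and 0.05). The labels do not say what the letters mean, and these r values cannot tell whether same-lettered libraries share an isolation or batch. With the replicate block the counts over all genes were 306 higher and 508 lower, 4 members were called higher, none of their calls changed and Ablim1 had a log2 fold change of 2.08. The 276 higher and 384 lower genes of the whole table were less stable. Leaving out 1 library gave 161 (without OCA A) to 363 (without OCA B) higher and 104 (without OCA A or DMSO A) to 758 (without OCA B) lower genes. There were 164 higher genes without DMSO C, and 126, 202 and 230 lower genes without OCA C, DMSO B and DMSO C; leaving out both OCA B and DMSO A gave 605 lower genes. There were 703 lower genes with no filter. With the length trend there were 377 higher and 233 lower genes, and with length and density 342 and 243; the cause was not tested. Shares within a family and the order per kb depend on 1 annotated length per gene. Ablim3 and Epb41l3 have too few counts for any change to be measured at this depth.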
